A study of Homo sapiens with 6 samples.

Results

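Among the circular RNAs (circRNAs) of Ishikawa cells, a human endometrial carcinoma line, 260 of 4814 were chosen because each had at least 1 back-splice junction read in every one of 6 libraries. These 260 are called the shared circRNAs here, and the other 4554 the remaining circRNAs. According to the labels, MPA was given to the cells of 3 libraries, and the cells of the other 3 were controls with no treatment named. The labels give no dose and no time, and they do not spell out MPA. They do not say whether the libraries of a group are separate cultures, and the p-values therefore rest on a spread between libraries that may be technical alone.

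A circRNA forms by back-splicing, when the splice donor at the end of an exon is joined to the acceptor at the start of the same exon or of one upstream of it. The product is a closed loop without a cap or a poly(A) tail, and it tends to outlast the linear mRNA of its host gene, in part because exonucleases have no end to start from. The first exon of a gene has no splice acceptor in front of it, so circles commonly begin at the second exon, and long flanking introns and inverted repeats within them are known to favour back-splicing. A read that crosses the back-splice junction is the evidence for the circle, because that order of bases does not occur in the linear transcript.

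The junctions themselves are printed for the 5 shared circRNAs with the most reads and for a host whose circles share a splice site, since these letters are what a junction read must cross. Each line runs 5′ to 3′ with the last 15 bases of the circle's final exon in lower case and the first 15 bases of its first exon in capitals, so that the back-splice lies where the case changes. The letters come from GENCODE release 29 transcripts (GRCh38), while coordinates below are on hg19 as the authors' table gives them.
HIPK3 hsa_circ_0000284: atctcggtactacagGTATGGCCTCACAAG
ATP5C1 hsa_circ_0007292: tggtgctgcagctctTCACCAGGAGACTAA
ZBTB46 hsa_circ_0002805: cccactcgctgtcccAGTCTGTAGAAGAGG
XPO1 hsa_circ_0001017: ggaaccagtgcgaagTAATCTATGCCAGCA
SPECC1 hsa_circ_0000745: agtctgctggccaagGGGCCTTTACAACAA
RAPGEF5 hsa_circ_0001681: cgtctaacatctgcgACTCTATCAAGAAGA
RAPGEF5 hsa_circ_0133954: tggcatctgtgaactACTCTATCAAGAAGA
RAPGEF5 hsa_circ_0079557: aagcaaggaagtctgACTCTATCAAGAAGA

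The RAPGEF5 set of 3 has the same capitals, because all of them begin at exon 2 of the gene and differ in the exon at which they close.

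The 6 libraries together held 26060 junction reads, between 3740 and 5454 per library, while their full sequencing depth was not given in the sources used here. At the smallest library, a count of 0 allows a share of up to 0.0802% of junction reads (3 counts), and this limit, like the exact binomial intervals at the 95% level used below, covers counting error only. Of the markers listed for endometrial epithelium, 3 of 11 hosts (CDH1, EPCAM and PAX8) gave any circRNA, with 8 reads in all and 0 shared circRNAs. Among stromal markers, 1 of 8 (FBN1, 3 reads) did so, and 0 of 4 blood and immune and 0 of 3 endothelial markers did. With so few reads, the labelled cell type could not be checked from these markers.

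The shared circRNAs held 7912 of the 26060 junction reads, or 30.4%, though they were 5.4% of the circRNAs. Most circRNAs were sparse: 2343 were read in 1 library only, 968 in 2, 604 in 3, 389 in 4 and 250 in 5. The lowest totals of circRNAs read in 1 to 6 libraries were 2, 3, 4, 5, 6 and 7 reads. No listed circRNA thus had only single reads, and any such circles are outside these counts. Shared circRNAs had between 7 and 167 reads in total, with a median of 23.5. Being read everywhere followed the total closely. Shared circRNAs were 20 of the 665 circRNAs with a total of 6 to 10 reads (3.01%), 88 of the 270 with 11 to 20 (32.6%) and 152 of the 170 with over 20 (89.4%).

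The margin by which they met the rule was often 1 read. In 140 of the 260, at least 1 library had a single read, while 120 had at least 2 reads in every library, 40 had at least 5 and 7 had at least 10. Just inside the rule, NRD1 hsa_circ_0007430, of the metalloendopeptidase nardilysin, had 1, 1 and 1 reads in the MPA libraries and 1, 1 and 2 in the control libraries. NSD1 hsa_circ_0075158, of a histone H3 lysine methyltransferase, had 1, 2 and 1 reads in the MPA libraries and 1 in each control library. These 2 were the shared ones among 180 circRNAs with a total of 7. ZZEF1 hsa_circ_0004767 followed with 2, 1 and 1 reads in the MPA libraries and 1, 1 and 2 in the control libraries.

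Just outside it, RAB3IP hsa_circ_0000419 had 16, 9 and 7 reads in the MPA libraries and 1, 14 and 0 in the control libraries. Its total of 47 was the highest among the remaining circRNAs, and control library 3 alone kept it out. ATXN2 hsa_circ_0002457 had 3, 5 and 10 reads in the MPA libraries and 12, 0 and 10 in the control libraries. FANCL hsa_circ_0001009 had 6, 2 and 11 reads in the MPA libraries and 8, 0 and 5 in the control libraries. For both, the single library at 0 was control 2, which had the lowest junction total of all. In all, 26 remaining circRNAs had a total of at least 20 reads.

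The share of junction reads that fell on the shared circRNAs was alike in the groups. It was 29.4, 32.4 and 28.2% in the MPA libraries and 29.1, 31.1 and 33.0% in the control libraries. The groups overlapped, and the difference of their means, -1.06 percentage points, was smaller than the SD of either group (2.16 for MPA and 1.95 for control, n = 3 each). The shared circRNAs were chosen by these same counts, with a read required in every library of both groups. A like share is thus partly fixed by the choice, and no test was run on it. The number of shared circRNAs seen with only 1 read was 48, 36 and 38 in the MPA libraries and 51, 49 and 56 in the control libraries. The median shared circRNA had 3.5, 4 and 5 reads in the MPA libraries and 3 reads in each control library, whose junction totals were also the lower ones. In bulk libraries such as these, fewer cells holding a circle and fewer copies per cell cannot be told apart.

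The most read circle was the exon 2 circle of HIPK3, a homeodomain-interacting kinase gene (chr11:33307959-33309057, plus strand, 1099 bases). It had 24, 33 and 32 reads in the MPA libraries and 35, 17 and 26 in the control libraries. The highest and the lowest of the 6 values were both control libraries, so the groups overlapped fully. Of its 1099 bases 1097 are coding, and it holds the start codon of the host. It was also among the 3 steadiest shared circRNAs whose mean reached 5 reads, with a coefficient of variation of 0.215 after scaling to library totals, and it was the only listed circRNA of HIPK3.

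ATP5C1 hsa_circ_0007292 (chr10:7839010-7844817, plus strand, exons 3 to 8, 799 bases) comes from the gene of the central-stalk gamma subunit of ATP synthase. It had 27, 18 and 19 reads in the MPA libraries and 22, 19 and 28 in the control libraries, and it held 97.8% of the junction reads of its host, the highest share among hosts with 2 or more circRNAs. ZBTB46 hsa_circ_0002805 (chr20:62407031-62422143, minus strand, exons 2 and 3, 1255 bases), of a BTB zinc finger transcription factor, had 20, 29 and 21 reads in the MPA libraries and 22, 18 and 11 in the control libraries. Both sets of values interleave between the groups.

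XPO1 hsa_circ_0001017 (chr2:61749746-61761038, minus strand, exons 2 to 4, 307 bases), of the export receptor exportin 1, had 15, 25 and 16 reads in the MPA libraries and 25, 18 and 18 in the control libraries. SPECC1 hsa_circ_0000745 (chr17:20107646-20109225, plus strand, exon 4 alone, 1580 bases), of the cytoskeletal coiled-coil protein cytospin-B, had 19, 27 and 24 reads in the MPA libraries and 18, 6 and 20 in the control libraries. The low SPECC1 value was control library 2, and the groups overlapped at 19 and 20 reads. With edgeR's quasi-likelihood test, which scales counts to the circRNA totals with TMM factors, the log2 fold changes of MPA over control for these 5 were -0.05 (HIPK3, SE 0.329), -0.35 (ATP5C1, SE 0.352), 0.23 (ZBTB46, SE 0.365), -0.35 (XPO1, SE 0.367) and 0.42 (SPECC1, SE 0.374). Each had a Benjamini-Hochberg adjusted p of 0.987 over all circRNAs tested (edgeR).

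**Figure D1:**
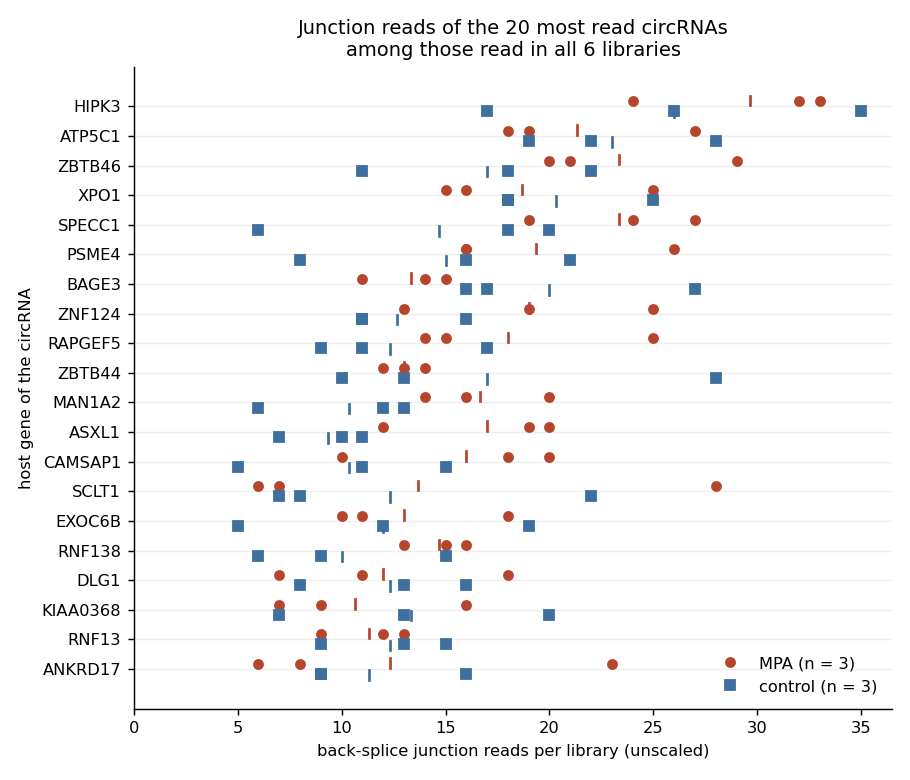
Back-splice junction reads per library, as deposited and unscaled (horizontal axis), for the 20 shared circRNAs with the most reads, named by host gene (vertical axis). Circles are the 3 MPA libraries, squares the 3 control libraries and short vertical lines the group means. HIPK3 leads with 24 to 33 reads in MPA and 17 to 35 in control libraries, and the groups overlap in most lines.

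Spread between libraries differed widely among the 88 shared circRNAs whose mean reached 5 reads. METTL3 hsa_circ_0000523, of the catalytic subunit of the m6A RNA methyltransferase, had the smallest coefficient of variation among them (0.0907). Its reads were 6, 5 and 6 in the MPA libraries and 5 in each control library. BAGE3 hsa_circ_0061261 came next with 10 reads in each MPA library and 7, 6 and 6 in the control libraries. At the other end of these 88, SCLT1 hsa_circ_0001439, of a distal appendage protein of the centriole, had 28, 7 and 6 reads in the MPA libraries and 22, 8 and 7 in the control libraries (coefficient of variation 0.706). Library 1 was the high one in both groups there. BTBD7 hsa_circ_0000563 had 7, 11 and 2 reads in the MPA libraries and 9, 2 and 3 in the control libraries (0.673). The median coefficient of variation was 48.4% over all shared circRNAs and 38.1% over these 88. These values include counting error, which is relatively larger at fewer reads, and they were not set against it. A small or large value therefore need not be a property of the circle.

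By the authors' classes, 251 of the 260 shared circRNAs were exonic (96.5%, exact interval 93.5 to 98.4%), against 4052 of the 4554 remaining ones (89.0%). Sense-overlapping circles were 5 of 260 (1.92%) against 410 of 4554 (9.0%), intronic circles were 4 of 260 (1.54%) against 77 of 4554 (1.69%), and intergenic or antisense circles were 0 of 260, which leaves an upper bound of 1.41%, against 15 of 4554. An identifier of circBase, a public catalogue of circRNAs, stood beside 256 of the shared circRNAs (98.5%) and 3543 of the remaining ones (77.8%). Since circRNAs were chosen by their counts, these and the following contrasts are descriptions, with no test.

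The median predicted length was 564 bases for shared circRNAs (quartiles 394 and 900) and 615 bases for the remaining ones (374 and 1167). Among exonic circles alone, medians were 553 and 550 bases. The authors' length equals the whole genomic span for all 415 sense-overlapping and all 81 intronic circles. It therefore counts any intron bases within the span there and need not be a spliced length. Length also equalled span for 207 of 4303 exonic circles, so the equality alone does not show that a circle holds intron. The median genomic span was 7680 bases for shared circRNAs and 10516 bases for the remaining ones. The shortest shared circles were UBAP2 hsa_circ_0001851 at 159 bases and MATR3 hsa_circ_0008922 at 161 bases, of the nuclear matrix RNA-binding protein matrin 3. RNF13 hsa_circ_0001346, of a membrane-bound ubiquitin ligase, had the widest span at 75217 bases and yet a spliced length of 716 bases.

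Exons could be assigned to 240 of the 251 exonic shared circRNAs and 3908 of the 4052 exonic remaining ones. The assignment asked for a run of exons in a GENCODE transcript of the host whose genomic distance and summed length both equalled the table's values, with a tolerance of 0 bases. A circle with no such run, or with more than 1, was left without exon numbers. Shared circles had a median of 3 exons and remaining ones a median of 4. Single-exon circles were 25 of 240 (10.4%) against 153 of 3908 (3.92%), and circles of over 6 exons were 28 of 240 (11.7%) against 895 of 3908 (22.9%). The shared circle with the most exons, 21, was VPS13A hsa_circ_0087255, of a bridge-like lipid transfer protein.

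Exon 2 was the usual start. It began 120 of 240 shared circles (50.0%, exact interval 43.5 to 56.5%) and 1129 of 3908 remaining ones (28.9%, 27.5 to 30.3%). Exon 3 began 25 shared circles (10.4%) and 541 remaining ones (13.8%), and exon 1 began 0 shared circles and 8 remaining ones. Circles made of exon 2 alone, such as those of HIPK3, the zinc finger gene ZBTB44 and the atypical cadherin gene FAT1, were 18 of 240 (7.5%) against 68 of 3908 (1.74%). Weighted by reads, and over circles with assigned exons, exon 2 circles held 54.4, 54.8 and 54.4% of shared-circRNA reads in the MPA libraries and 57.5, 56.2 and 54.6% in the control libraries. Among remaining circRNAs they held 29.7, 33.6 and 31.8% of reads in the MPA libraries and 33.8, 35.2 and 31.5% in the control libraries. The values for shared circRNAs lay above those for remaining ones in all 6 libraries, and within each set the MPA and control values overlapped. The same circles are summed in every library, and these counts also chose them, so the 6 libraries are not separate evidence for the contrast.

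**Figure D2:**
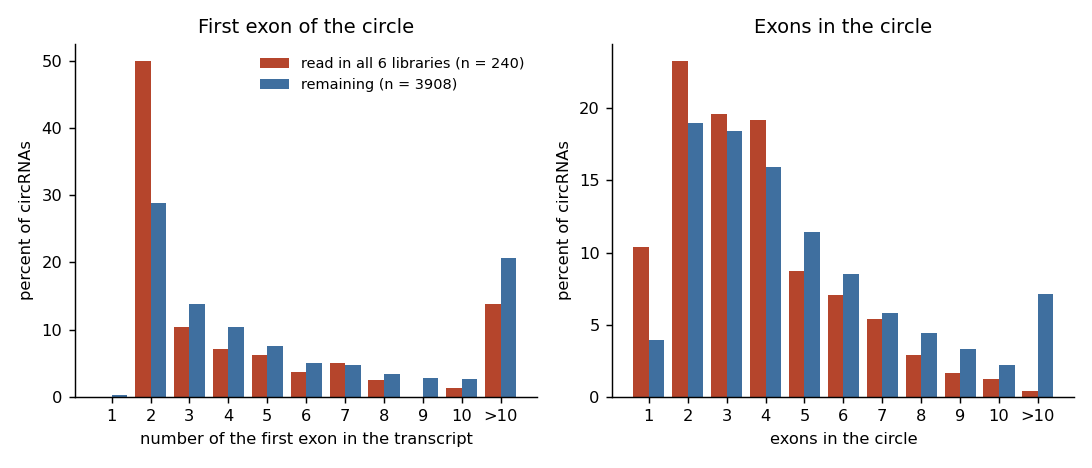
Number of the first exon of the circle in its transcript (left) and number of exons in the circle (right), as percent of circles with assigned exons (vertical axes), for 240 shared and 3908 remaining circRNAs. Bars at exon 2 stand at 50.0% for shared and 28.9% for remaining circles, and single-exon circles at 10.4% and 3.92%.

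Starting at exon 2 brings many circles across the start of translation. Of 238 shared circles in coding transcripts, 67 held the annotated start codon (28.2%) and 2 the stop codon (0.84%), against 525 (13.6%) and 68 (1.76%) of 3873 remaining circles. Of the 67, 60 began at exon 2. Circles of coding bases alone were 167 of 238 shared ones (70.2%) and 3280 of 3873 remaining ones (84.7%). Among these, the length was a multiple of 3, which keeps the reading frame around the circle, in 36.5% of shared and 36.3% of remaining circles. ASXL1 hsa_circ_0001136 (chr20:30954187-30956926, plus strand, exons 2 to 4) is printed whole, because it is short and holds an exon of 3 bases, in capitals, between exons of 83 and 109 bases. ASXL1 encodes a chromatin protein that works with the BAP1 deubiquitinase.
ASXL1 hsa_circ_0001136: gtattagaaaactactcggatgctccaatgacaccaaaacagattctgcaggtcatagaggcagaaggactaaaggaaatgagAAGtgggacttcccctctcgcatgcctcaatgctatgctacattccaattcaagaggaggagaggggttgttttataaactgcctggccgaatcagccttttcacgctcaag

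Introns next to the shared circles had the longer medians. The intron upstream of the first exon had a median of 13448 bases for shared and 6323.5 bases for remaining circles, and the intron downstream of the last exon had medians of 13149 and 5581.5 bases. Both introns exceeded 10 kb for 103 of 240 shared circles (42.9%) and 748 of 3898 remaining ones (19.2%). Base composition differed little, with a median GC content of the circle of 42.2% for shared and 43.1% for remaining circles.

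Part of these contrasts narrowed when remaining circRNAs with few reads were left out, or when ranges of total reads were set side by side. Depth was only roughly matched in this way. Of the remaining circRNAs with at least 6 reads, 645 had 6 to 10 and 18 had over 20. Of the 260 shared ones, 152 had over 20. In that top range, totals reached 167 for shared and 47 for remaining circRNAs. Among the 845 remaining circRNAs with a total of at least 6 reads, 94.0% were exonic, 95.9% had a circBase identifier, 36.7% began at exon 2 and the median upstream intron was 8854 bases. At totals of 6 to 10 reads, exon 2 began 5 of 16 shared circles (31.2%) and 202 of 589 remaining ones (34.3%), and at 11 to 20 reads it began 31 of 82 (37.8%) and 74 of 163 (45.4%). At over 20 reads it began 84 of 142 shared circles (59.2%, exact interval 50.6 to 67.3%) and 6 of 16 remaining ones (37.5%, 15.2 to 64.6%). In both lower ranges the value for shared circles was the smaller one, and the upper range holds only 16 remaining circles. The median upstream intron of shared circles was 8064.5, 12481.5 and 14737 bases in the 3 ranges of reads, against 8165.5, 10667 and 6577.5 bases for remaining circles. Over these ranges, 18.8, 18.8 and 34.5% of shared circles in coding transcripts held the start codon, against 14.6, 25.5 and 18.8% of remaining ones. Both introns exceeded 10 kb for 12.5, 40.2 and 47.9% of shared circles, against 27.0, 35.2 and 31.2%. Single-exon circles were 1 of 16, 6 of 82 and 18 of 142 shared ones. Among remaining ones they were 27 of 589, 18 of 163 and 3 of 16. Each of these contrasts thus changed direction in at least 1 range. How much of each contrast belongs to read depth and how much to being read in every library was not tested.

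**Figure D3:**
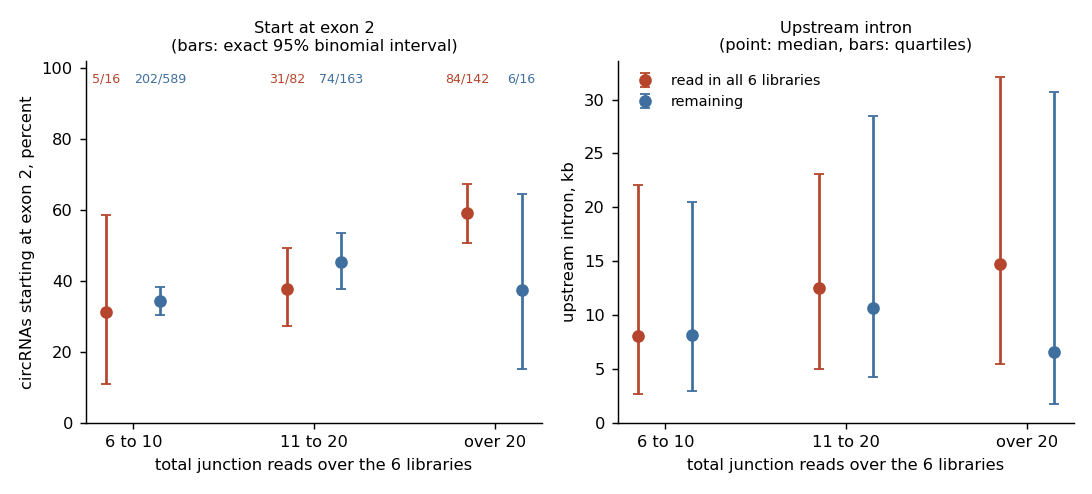
Percent of circles starting at exon 2 (left, with exact 95% binomial intervals and the counts printed above) and upstream intron length in kb (right, median with quartiles), by total junction reads over the 6 libraries, for shared (left of each pair) and remaining circRNAs. At 6 to 10 reads the intervals for exon 2 overlap (31.2% and 34.3%), and at over 20 reads 59.2% of shared circles started there.

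The 260 shared circRNAs came from 223 hosts among the 2531 host genes of the table. Of them, 48 were the only listed circle of their host. In hosts with 2 or more circles, the shared circRNA was the most read one in 171 of 212 cases (80.7%), against 1056 of 3077 for remaining circRNAs (34.3%), a measure that the choice by reads partly fixes. It held a median of 60.5% of the junction reads of its host (quartiles 36.6 and 76.9%), and over 50% of them in 134 cases. The same hosts gave 521 remaining circRNAs with 2382 reads. Of these, 122 of 445 with assigned exons began at exon 2 (27.4%), their median predicted length was 723 bases and their median span 16193 bases.

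A splice site used by more than 1 circle was common. Of the shared circRNAs, 133 (51.2%) shared their start site with another listed circRNA, against 1276 remaining ones (28.0%). The end site was shared by 95 (36.5%) against 937 (20.6%). These site values were not compared at like read depth. The median number of listed circRNAs of the host was 3 for shared circRNAs and 2 for remaining ones. It was also 3 for remaining circRNAs with a total of at least 6 reads. More than 1 shared circRNA came from 31 hosts, with 68 shared circRNAs between them. In 19 of these hosts the circles had a common start site, in 7 a common end site and in 5 neither.

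DLG1, a membrane-associated guanylate kinase scaffold of cell polarity, had the most, with 4 of its 12 circles read in every library and 83.4% of its 151 reads in them. All 4 began at exon 13 and closed at the end of exon 14, 15, 16 or 18. The exon 13 to 15 circle, hsa_circ_0008500, had 7, 11 and 18 reads in the MPA libraries and 16, 8 and 13 in the control libraries. The exon 13 to 14 circle, hsa_circ_0001383, had 2, 8 and 5 reads in the MPA libraries and 2, 3 and 4 in the control libraries. The longer pair, hsa_circ_0008583 and hsa_circ_0007203, had at most 5 reads in any library. From the shortest circle to the longest, the totals were 24, 73, 15 and 14 reads.

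RAPGEF5, a guanine nucleotide exchange factor for Rap GTPases, had 3 shared circles that held 95.7% of its 187 reads. The exon 2 to 6 circle, hsa_circ_0001681 (chr7:22330794-22357656, minus strand), had 14, 15 and 25 reads in the MPA libraries and 11, 9 and 17 in the control libraries. The exon 2 to 5 circle, hsa_circ_0133954, had 17, 11 and 14 reads in the MPA libraries and 7, 6 and 10 in the control libraries. The exon 2 to 7 circle, hsa_circ_0079557, ran the other way, with 4, 1 and 1 reads in the MPA libraries and 9, 5 and 3 in the control libraries. Their log2 fold changes were 0.28 (SE 0.403), 0.61 (SE 0.470) and -1.65 (SE 0.835), with edgeR adjusted p values of 0.987, 0.987 and 0.875. None passed the test, and the difference between the circles was not tested.

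Circles of MAN1A2, a Golgi alpha-mannosidase, began at exon 2 and closed at the end of exon 4, 5 or 6. The exon 2 to 5 circle, hsa_circ_0000118, led with 20, 14 and 16 reads in the MPA libraries and 6, 13 and 12 in the control libraries. Those of DNAH14, an axonemal dynein heavy chain, began at exon 2 as well and closed after exon 7, 8 or 10. Among them, hsa_circ_0016601, which spans 54875 bases, had 9 reads in each MPA library and 3, 5 and 9 in the control libraries.

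MPP6, of the membrane-associated guanylate kinase family, had 3 shared circles with a common end and separate starts. The starts of hsa_circ_0001686 and hsa_circ_0133996 lie 3 bases apart. The exonic one, hsa_circ_0001686, is listed at 1116 bases, and the other, classed sense overlapping, at 44998 bases, which is its whole span. Their totals were close, at 26 and 22 reads, but their values differed library by library. The circle hsa_circ_0001686 had 2, 5 and 5 reads in the MPA libraries and 5, 6 and 3 in the control libraries. For hsa_circ_0133996 they were 5, 2 and 2 in the MPA libraries and 3, 4 and 6 in the control libraries.

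The other shared circles that the authors did not class as exonic were led by ZNF124 hsa_circ_0112879, of a zinc finger gene. It had 19, 13 and 25 reads in the MPA libraries and 11, 11 and 16 in the control libraries. CCNH, of the cyclin partner of CDK7, gave a sense-overlapping circle without a circBase identifier (chr5:86705107-86708639, minus strand) with 8, 5 and 13 reads in the MPA libraries and 14, 4 and 7 in the control libraries. Intronic circles were fewer, and ZNF394 hsa_circ_0001726 led them with 3, 5 and 8 reads in the MPA libraries and 3, 4 and 2 in the control libraries. ZNF609 hsa_circ_0000615, named here after its values were seen because the circle of this gene is widely studied, was classed sense overlapping at 874 bases. It had 3 reads in each MPA library and 4, 3 and 1 in the control libraries.

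Of the 4 shared circRNAs without a circBase identifier, that of PSME4, the proteasome activator PA200, was the most read (chr2:54158972-54164677, minus strand, exons 5 to 10, 771 bases). It had 16, 26 and 16 reads in the MPA libraries and 21, 8 and 16 in the control libraries. PCSK5, a proprotein convertase gene, gave one with 2, 1 and 1 reads in the MPA libraries and 1, 2 and 7 in the control libraries. BAGE gave the last, with 1 read in each MPA library and 1, 3 and 1 in the control libraries. BAGE and BAGE3 have copies in the genome that are nearly the same in sequence, and which copy gave these reads is uncertain.

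MPA-treated cells were then set against control cells to ask which circles differed with the treatment. All 260 shared circRNAs entered the test, together with 845 others whose mean over the 6 libraries reached 1 read. With edgeR, 0 of 1105 circRNAs passed a false discovery rate of 0.05, 0 higher (0% of those tested) and 0 lower (0%), and 0 of the 260 shared ones did. DESeq2 also gave 0. At an unadjusted p under 0.05, edgeR had 34 circRNAs higher with MPA (3.08% of those tested) and 27 lower (2.44%). Of the shared circRNAs, 1 was on the higher side (0.385%) and 2 on the lower side (0.769%), below both background shares. The rule of a read in every library leaves out circles absent from a group, so it partly fixes this contrast. DESeq2 had 10 at an unadjusted p under 0.05, 2 of them shared.

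Shared circRNAs split evenly by sign, with 129 log2 fold changes above 0 and 131 below. Their median was 0, beside 0.06 over all 1105 tested, and they ran from -1.65 to 1.40 with a median SE of 0.804. A change past 2-fold was estimated for 28 shared circRNAs (10.8%), 9 higher and 19 lower, and for 416 of all tested ones (37.6%), among which low counts were common. The rule also limits the fold changes of shared circRNAs, since each had to be read in every library of both groups. The smaller share past 2-fold is therefore partly fixed by the choice. A 2-fold difference with the median SE lay within 2 SE of 0, so changes of that size in a single circle were mostly not detectable at this depth.

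**Figure D4:**
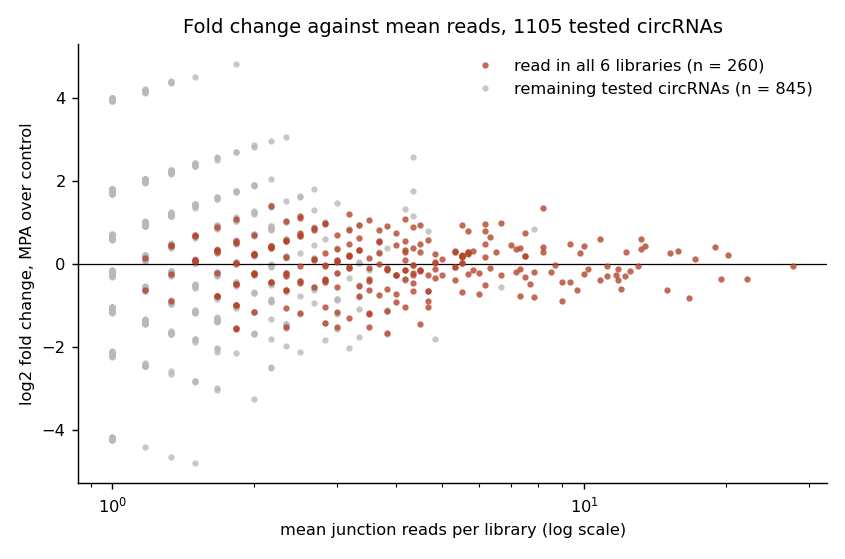
Log2 fold change of MPA over control from edgeR (vertical axis) against mean junction reads per library on a log scale (horizontal axis) for 1105 tested circRNAs, with the 260 shared ones in colour. Shared circRNAs lie between -1.65 and 1.40, and the spread narrows as reads increase.

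Among the shared circRNAs, the smallest p on the higher side belonged to NFATC3 hsa_circ_0000711 (chr16:68155890-68160513, plus strand, exons 2 and 3, 1298 bases), of a calcium-responsive NFAT transcription factor. It had 13, 14 and 10 reads in the MPA libraries and 2, 7 and 3 in the control libraries, and the counts of the groups did not overlap. All MPA libraries had larger totals than the control libraries, and as a share of junction reads MPA library 3 (0.183%) lay just under control library 2 (0.187%). The log2 fold change was 1.36 (SE 0.557), and it did not pass the test (edgeR adjusted p = 0.875). Without control library 2 it was 2.09. A further shared circle of the same gene, hsa_circ_0005615, had 1, 5 and 2 reads in the MPA libraries and 5, 1 and 9 in the control libraries, with a log2 fold change of -1.13 (edgeR adjusted p = 0.987).

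Next on the higher side among them was NUP54 hsa_circ_0070039, of a nucleoporin of the central channel, with 14, 7 and 7 reads in the MPA libraries and 6, 4 and 2 in the control libraries. Its log2 fold change was 0.98 (SE 0.598), and 0.54 without MPA library 1. A circle of a host listed only as G039940, hsa_circ_0109327, had 4, 14 and 8 reads in the MPA libraries and 3, 3 and 5 in the control libraries, and its log2 fold change of 0.97 (SE 0.622) became 0.36 without MPA library 2. ATAD2 hsa_circ_0085465, of a bromodomain ATPase, had 7, 10 and 6 reads in the MPA libraries and 3, 5 and 2 in the control libraries, a log2 fold change of 0.95 (SE 0.663), or 0.62 without MPA library 2. ASXL1 hsa_circ_0001136 had 19, 12 and 20 reads in the MPA libraries and 11, 7 and 10 in the control libraries, a log2 fold change of 0.61 (SE 0.432). As shares of junction reads the groups overlapped for NUP54, G039940 and ATAD2 and not for ASXL1, and all 4 had an edgeR adjusted p of 0.987.

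The smallest p on the lower side among the shared circRNAs was that of BAGE3 hsa_circ_0061259 (chr21:11038728-11058323, minus strand). It had 11, 15 and 14 reads in the MPA libraries and 17, 27 and 16 in the control libraries, so every MPA count was below every control count. The test by edgeR gave a log2 fold change of -0.82 with an SE of 0.389 (adjusted p = 0.875), and -0.48 without control library 2, the high one. The other shared circle listed under BAGE3, hsa_circ_0061261, ran the other way. It had 10 reads in each MPA library and 7, 6 and 6 in the control libraries, a log2 fold change of 0.41 (edgeR adjusted p = 0.987). RAPGEF5 hsa_circ_0079557, described above, was next, and its value was -2.59 without MPA library 1. STX6 hsa_circ_0007905, of a trans-Golgi SNARE protein, had 2, 2 and 4 reads in the MPA libraries and 13, 1 and 5 in the control libraries. Its estimate on the log2 scale, -1.43 with an SE of 0.747 (edgeR adjusted p = 0.889), rested on control library 1, without which it was -0.44.

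ERBB2IP hsa_circ_0001492, of the scaffold protein Erbin, had 6, 8 and 7 reads in the MPA libraries and 9, 14 and 10 in the control libraries, with a log2 fold change of -0.88 (SE 0.503). PDS5A hsa_circ_0007308, of a cohesin-binding protein, had 1, 2 and 3 reads in the MPA libraries and 4, 4 and 7 in the control libraries, with a log2 fold change of -1.52 (SE 0.870). In both, every MPA library was below every control library, in counts and in shares of junction reads, and both had an edgeR adjusted p of 0.987. The circles named on either side were picked for a small p, so a split between their groups partly restates that choice. How often such splits occur over all tested circRNAs was not counted.

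Hosts were also grouped by role into 12 lists, and 0 circRNAs of any list passed the test in either direction. Zinc finger hosts gave 17 shared circRNAs among 143 (11.9%), against 5.4% over the whole table. ZBTB46, ZNF124, ZBTB44 and ZKSCAN1 led them, 7 of the 17 log2 fold changes lay above 0 and the median was -0.08. Hosts of adhesion, polarity and the cytoskeleton gave 19 among 161 (11.8%), of which 10 came from DLG1, DNAH14 and MPP6. Regulators of small GTPases gave 13 among 140 (9.29%) from 8 hosts, RAPGEF5 first. The lists overlap, so their shares are not separate results. Circles of ARHGAP5 and ARHGAP12 stand in both the GTPase and the adhesion list, and those of GDI2 in both the GTPase and the membrane trafficking list. Circles of 1 host are not independent of each other.

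Chromatin and transcription regulators gave 14 shared circRNAs among 231 (6.06%), with 12 log2 fold changes above 0 and a median of 0.41, beside 0.06 over all tested. As a share of junction reads the 14 together held 1.59, 1.87 and 1.58% in the MPA libraries and 1.16, 1.23 and 1.31% in the control libraries, which did not overlap. This was so for 1 of the 12 lists, and no test was run on the sum. The most read were ASXL1 hsa_circ_0001136 and NFATC3 hsa_circ_0000711, which were also among the circles picked above for a small p on the higher side. The sum includes both and was not taken without them, so its split need not hold for the rest of the list. ARID1A hsa_circ_0008494, of a SWI/SNF remodeller subunit, had 4, 10 and 11 reads in the MPA libraries and 5, 5 and 2 in the control libraries. KMT2C hsa_circ_0001769, of a histone H3 lysine methyltransferase, had 1, 8 and 9 reads in the MPA libraries and 2, 4 and 2 in the control libraries. ARID1A and KMT2C, with log2 fold changes of 0.8 and 0.89, were named after their values were seen. SETD3 hsa_circ_0000567 had more reads in total (45, against 37 and 26) and a log2 fold change of -0.31. BPTF hsa_circ_0000799, with 33 reads, had 0.04. The edgeR adjusted p was 0.875 for NFATC3 hsa_circ_0000711 and at least 0.987 for the other 13.

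Membrane trafficking gave 12 shared circRNAs among 213 (5.63%), with 2 log2 fold changes above 0 and a median of -0.34. Their share of reads was 0.85, 0.945 and 1.12% in the MPA libraries and 1.39, 0.989 and 1.66% in the control libraries, which overlapped. EXOC6B hsa_circ_0009043, of an exocyst subunit, had 10, 11 and 18 reads in the MPA libraries and 5, 12 and 19 in the control libraries. GDI2 hsa_circ_0017586, of a Rab GDP dissociation inhibitor, had 5, 6 and 7 reads in the MPA libraries and 11, 6 and 9 in the control libraries.

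Nuclear transport hosts gave 7 shared circRNAs among 111 (6.31%), led by XPO1 and by TNPO3, the importin of SR splicing factors. TNPO3 hsa_circ_0001741 had 11, 3 and 12 reads in the MPA libraries and 7, 6 and 6 in the control libraries. Kinases gave 9 among 173 (5.2%), with CSNK1G3 hsa_circ_0001522, of a casein kinase 1, after HIPK3 at 11, 9 and 5 reads in the MPA libraries and 9, 11 and 9 in the control libraries. Mitochondrial hosts gave 7 among 97 (7.22%), where OMA1 hsa_circ_0002316, of an inner membrane protease, had 6, 8 and 5 reads in the MPA libraries and 10, 10 and 8 in the control libraries. The groups overlapped in each of these except at OMA1, where they met at 8 reads, and the OMA1 log2 fold change was -0.78 (SE 0.534, edgeR adjusted p = 0.987).

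Ubiquitin and protein turnover gave 10 shared circRNAs among 234 (4.27%). The ubiquitin ligase gene RNF138 led with hsa_circ_0005729, at 13, 16 and 15 reads in the MPA libraries and 6, 9 and 15 in the control libraries, and RNF13 had 12, 9 and 13 reads in the MPA libraries and 9, 13 and 15 in the control libraries. Mitosis, centrosome and DNA replication gave 14 among 254 (5.51%), led by DNA2, a nuclease and helicase gene, whose hsa_circ_0006151 had 9, 10 and 13 reads in the MPA libraries and 9, 6 and 14 in the control libraries. RNA processing gave 6 among 143 (4.2%), led by METTL3 and by UPF2, a factor of nonsense-mediated decay, whose hsa_circ_0000213 had 3, 9 and 7 reads in the MPA libraries and 9, 2 and 2 in the control libraries. In each of these circles the groups overlapped.

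Hosts of the progestin and decidual response gave 9 circRNAs, of which 1 was shared. FKBP5 hsa_circ_0001599, of a steroid-inducible co-chaperone, had 1, 1 and 2 reads in the MPA libraries and 2, 4 and 1 in the control libraries. The groups overlapped, and its log2 fold change was -0.98 (SE 1.24, edgeR adjusted p = 0.987), an error larger than the estimate.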

How the data were processed

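circRNA sequencing of Ishikawa cells gave 6 libraries, 3 MPA and 3 control, grouped by the labels. The authors deposited 1 table. Per the file headers, it lists junction read counts per circRNA and library, without normalization, and 6 columns of logCPM from edgeR. Set against the counts, these deposited values run on a log2 scale; they were not used. It also lists hosts, classes, circBase identifiers and predicted lengths. CASAVA 1.8, BWA and hg19, the build of the coordinates, come from the submitters' processing notes. The circRNA caller was not given in the sources used here.

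The shared circRNAs and the host lists were chosen with earlier results of these data known. The test on circRNAs with a total of at least 6 reads was edgeR's robust quasi-likelihood fit with a group term (version 4.0.16, R 4.3.3), TMM factors on circRNA totals, with Benjamini-Hochberg adjusted p under an FDR of 0.05. The SE is the size of the log2 fold change over the root of F. DESeq2 1.42.0 was the other test, and its size factors rest on circRNAs without a 0, that is on the shared ones. The edgeR step was tested on simulated data.

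Exons came from GENCODE release 29: 4148 of 4303 exonic circRNAs matched 1 run of exons by span and length, 3978 of them in the transcript that the table names. This match, and the measures of exons, introns and start codons made from it, were chosen after the data had been seen. No coordinate was moved between builds. Python 3.11.15 with pandas 2.3.3, scipy 1.17.1 and matplotlib 3.10.9 did the rest.

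Named circRNAs were the 5 with the highest mean, the 5 with the smallest p in each direction, up to 5 not exonic or without circBase identifier, the 3 longest, shortest and widest, the 5 hosts with the most shared circRNAs, 2 per list, 3 just inside and outside the rule, and the 3 most and least variable. 1 circle that the rule names is not reported here.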

Additional observations from a re-analysis of the deposited data

How the results depend on the processing

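MPA against control gave 0 circRNAs past the threshold under every alternative run: other size factors, a mean of at least 5 reads, no filter, DESeq2, each library left out (0 to 0) and the replicate number as a block (0). Numbers were not treated as pairs, since same-numbered libraries deviated with correlations of -0.0201, 0.0213 and 0.0311. Counts at an unadjusted p under 0.05 moved from 61 to 2 of 91 with the stricter filter, 43 without one, 12 with the block and 10 with DESeq2, and ran from 23 (without MPA library 3) to 50 with 1 library left out. Of the 10 shared circRNAs with the smallest p, for which alternatives were run, none had a log2 fold change that reversed. Requiring 2 reads in every library left 120 shared circRNAs, with a median length of 658 bases, a host share of 67.3% and 61.5% starting at exon 2. With each library left out, 288 to 311 circRNAs were read in the other 5. The difference in read share was -2.81 to -0.283, length 556 to 592, span 7384 to 8391, exonic 94.2 to 97.0%, circBase 97.6 to 98.3%, host share 58.3 to 59.9%, exon 2 start 47.0 to 50.4%, upstream intron 12262 to 13522, downstream intron 11762 to 12548.5 and exons 3 to 4. Remaining circRNAs with at least 6 reads had a length of 563, a span of 9227, 94.0% exonic, 95.9% circBase, 36.7% exon 2, and introns of 8854 and 8374. Those read in at least 2 libraries had 567, 9802, 93.1%, 93.1%, 33.4%, 7690 and 7099, and exonic ones alone a length of 550. Exon and intron alternatives were chosen after seeing the data, and the causes were not tested.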
